A study of Mus musculus with 8 samples.

Results

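The DNA damage response and repair genes of this report are 47 named mouse genes, chosen by symbol from the sensors, end-joining, recombination, Fanconi anaemia, excision and mismatch repair pathways. All 47 had exon IDs in the deposited tables, among 52502 genes that did, and 30 held enough counts to be tested. RNA was compared in germinal vesicle (GV) stage oocytes, which have finished growth and wait in prophase of meiosis, between 4 control libraries (Kiaa1429F/+;Zp3-Cre) and 4 cKO libraries (Kiaa1429F/F;Zp3-Cre). Kiaa1429, now named Virma, encodes a scaffold protein of the m6A writer, the enzyme complex that methylates adenosines in mRNA. Both groups were C57BL/6 females, 20 days old in one label and 3 weeks old in another, given 5 IU of PMSG, a gonadotropin, 48 hours before oocytes of at least 70 µm were taken. Each library came from about 20 oocytes. Both groups carried Zp3-Cre, which acts in growing oocytes, and control oocytes kept 1 allele that Cre cannot remove. The labels do not name the floxed exons. The labels speak of 4 separate experiments without tying libraries to animals, so a p-value reflects only how far these libraries scatter, part of which may be technical.

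Oocytes rest for months in meiotic arrest and must keep their genome intact with little new transcription. Double-strand breaks are sensed by the Rad50, Mre11a and Nbn complex and the kinase Atm, and stalled forks by Atr and Chek1. They are then joined end to end by the Ku, Prkdc and Lig4 machinery, or copied from a homologous template with Brca1, Brca2 and their partners. Damage to single strands and bases is handled by excision and mismatch repair, and crosslinks between strands by the Fanconi anaemia proteins.

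Levels are given as CPM, counts divided by library size, scaled by TMM factors, which offset differences in RNA makeup between libraries. A gene was called higher or lower in cKO at an adjusted p under 0.05. Each adjusted p below comes from edgeR's quasi-likelihood test with Benjamini-Hochberg adjustment over all 10673 genes or 14052 exons tested. Values after ± are SD over 4 libraries, and SE is that of a log2 fold change of cKO over control. Per library 4247471 to 5064008 counts fell on exon IDs, and 3 counts equal 0.592 to 0.706 unscaled CPM. Virma, the targeted gene (ENSMUSG00000040720.15, chromosome 4, 11485958 to 11550684, mm10), was at 60.5, 71.0, 56.7 and 81.4 CPM in control libraries 1 to 4 and at 18.5, 24.0, 17.7 and 16.9 CPM in cKO libraries 1 to 4. This was a log2 fold change of -1.81 with an SE of 0.18 (adjusted p = 1.02e-06).

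The summed level of 10 oocyte markers was 35586 to 48107 CPM in control and 18224 to 22137 CPM in cKO libraries. Of the 10, 4 were lower (Gdf9, Bmp15, Zp1 and Mos) and 6 not called. Bmp15, at 18663 CPM in control and 7273 CPM in cKO, and Gdf9, at 13484 and 8063 CPM, made up most of the fall of the sum. The summed level of 16 cumulus and granulosa cell markers was 244 to 406 CPM in control and 454 to 745 CPM in cKO libraries. Of these, 11 were tested, 4 higher (Inha, Nr5a2, Ptgs2 and Kitl) and 3 lower (Fshr, Cyp19a1 and Greb1). Nr5a2, at 138 CPM in control and 320.2 CPM in cKO, and Inha, at 65.6 and 172 CPM, made up most of the rise of the sum. The 12 theca, stroma and vessel markers summed to 10.7 to 15.7 CPM in control and 9.27 to 16.9 CPM in cKO. Of 8 immune and blood markers 5 were at 0 in every library (Ptprc, Adgre1, Cd74, Hba-a1 and Hbb-bs), and the 8 summed to 0.238 to 1.54 CPM in control and 5.48 to 9.38 CPM in cKO, with C1qa higher. Reads that met more than 1 exon ID were 72.9% to 75.4% in control and 78.8% to 80.4% in cKO libraries. These shares are of reads assigned to 1 exon ID, to more than 1 or to none. The part of these differences in the results below was not tested, and in bulk RNA fewer cells of a type and less RNA per cell cannot be told apart.

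Of the 30 tested members 3 were higher in cKO (Bard1, Wrn and Exo1) and 8 lower (Fancc, Rnf168, Lig4, Xrcc5, Mdc1, Rad50, Brca2 and Brca1), together 36.7%. Across all genes tested 54.9% were called, 27% higher and 27.9% lower. The members' share of lower calls, 26.7%, was near that background, and their share of higher calls was 10%. Over the 7991 protein-coding genes among them 53.9% were called, 30.4% higher and 23.5% lower. The median log2 fold change was -0.15 over tested members and 0.02 over all genes. Scaling bore on this split: with library totals and no scaling factors, log2 fold changes were 0.16 higher in the median, and 7 members were called higher and 5 lower. The 4 added higher calls were then Xrcc4, Xrcc2, Parp1 and Msh6, and Rad50, Brca1 and Brca2 were no longer called. The 2 groups of libraries did not overlap for 10 of the 30 tested members, against 50.1% of all genes tested. These were 9 of the 11 called members and Parp1.

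**Figure D1:**
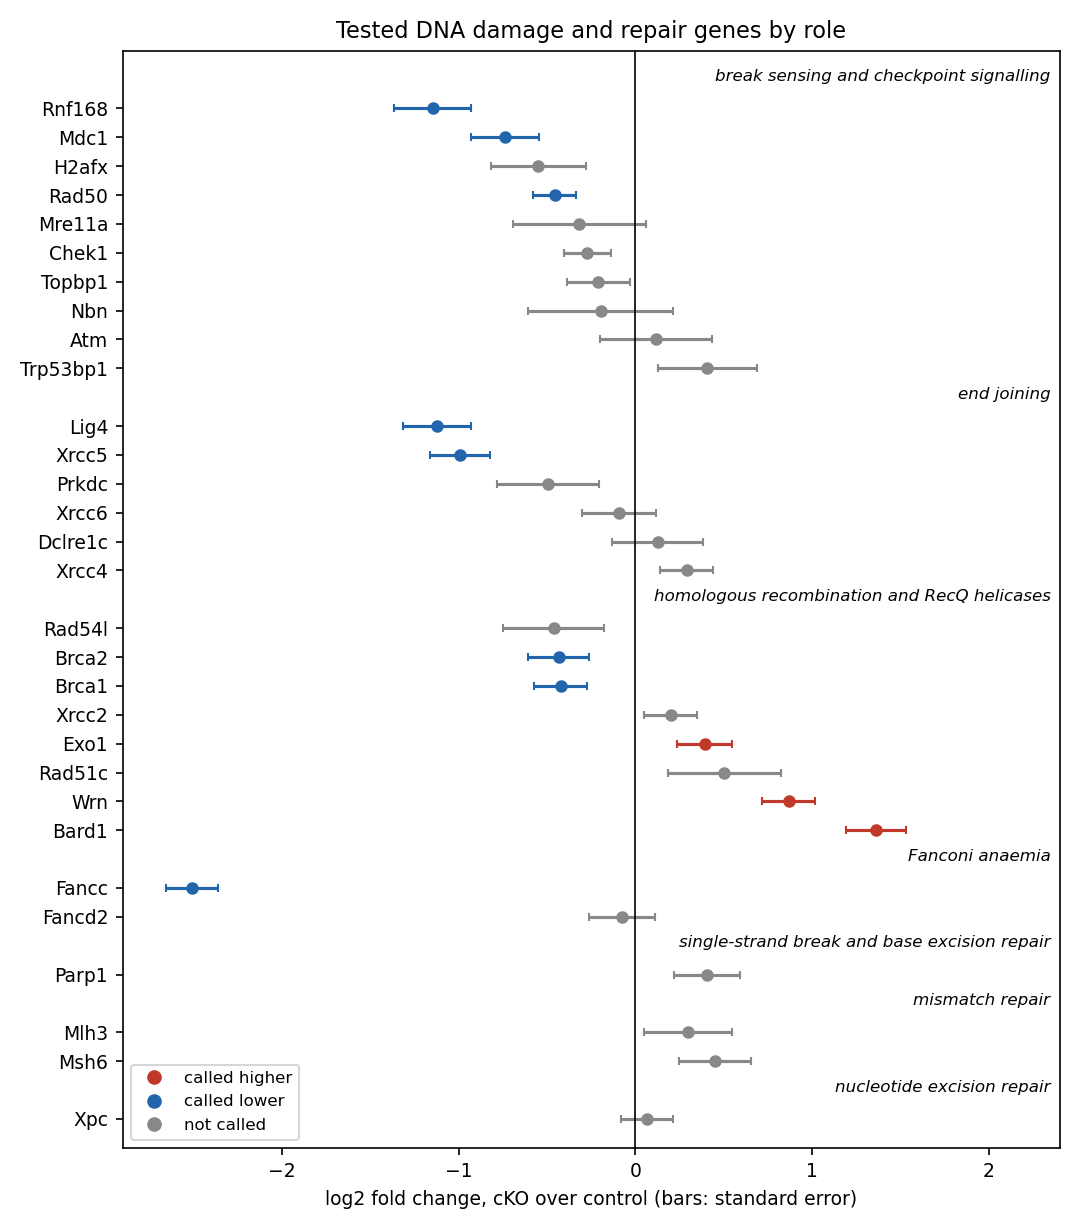
Log2 fold change of cKO over control (horizontal axis, bars are standard errors) for the 30 tested genes, ordered by role, with genes called higher in red, called lower in blue and not called in grey. Fancc stands lowest at -2.51 and Bard1 highest at 1.36; the 19 uncalled genes lie within 0.55 of 0.

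Among the genes that sense breaks and signal to the checkpoint, 10 of 13 were tested, 3 were lower in cKO and none higher. The lower share was 30%, where 27.9% of all genes tested were lower and 27% higher. Rnf168, the ubiquitin ligase that marks chromatin around breaks (chromosome 16, 32277459 to 32301434), was at 16.1, 21.6, 18.8 and 26.1 CPM in control libraries 1 to 4 and 7.03, 11.6, 9.60 and 8.91 CPM in cKO libraries 1 to 4. Every cKO library lay below every control library, at 45.1% of the control level (log2 fold change -1.15, SE 0.22, adjusted p = 0.000418). Of the Rnf168 counts 93.9% lie on a single last exon, of which 528 of 3047 bases are covered by no other exon ID. Mdc1, the scaffold that binds phosphorylated H2AX (chromosome 17, 35841515 to 35859670), was at 32.1, 52.5, 42.9 and 36.5 CPM in control and 21.1, 21.7, 30.3 and 24.9 CPM in cKO. The highest cKO library stayed just under the lowest control library, and the log2 fold change of -0.74 had an SE of 0.19 (adjusted p = 0.00422). The Mdc1 change was -0.39 and not called with last exons left out (adjusted p = 0.241). Rad50, the coiled-coil ATPase that bridges broken ends (chromosome 11, 53649519 to 53707319), was at 183, 171, 160.0 and 177 CPM in control and 116, 132, 133 and 122 CPM in cKO. All 4 cKO libraries were below the controls, yet the size was small, a log2 fold change of -0.46 with an SE of 0.12 (adjusted p = 0.00493). With last exons left out, Rad50 had a log2 fold change of 0.22 (adjusted p = 0.470). Its last exon holds 95.4% of its counts.

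The partners of Rad50 were counted at low levels. Mre11a, the nuclease of the complex, was at 2.68 ± 0.692 CPM in control and 2.14 ± 0.986 CPM in cKO, and Nbn, the other subunit, at 2.37 ± 0.763 and 2.03 ± 0.950 CPM. Neither was called, and for both the groups overlapped. Atm, the kinase that starts signalling from a break, was at 3.67 ± 1.11 CPM in control and 4.01 ± 1.32 CPM in cKO (log2 fold change 0.12, adjusted p = 0.776). Trp53bp1, which binds the chromatin mark that Rnf168 lays down, was at 2.88 ± 0.468 and 3.84 ± 0.731 CPM (log2 fold change 0.41, adjusted p = 0.239). Of the Trp53bp1 counts 49.2% lie on the last exon of Trp53bp1-213, annotated as retaining an intron.

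H2afx, the histone variant H2AX, was at 286, 637, 523 and 199.9 CPM in control libraries and 313, 242, 273 and 296 CPM in cKO libraries. Control libraries spread widely around the narrow cKO range, and the log2 fold change of -0.55 (SE 0.27) was not called (adjusted p = 0.0964). Without control library 4 it was -0.79 (adjusted p = 0.00521) and without control library 1 it was -0.70 (adjusted p = 0.0461). All H2afx counts lie on an exon that overlaps Gm44335, and reads that meet exons of both genes are set apart. Of the 1384 bases of this exon 1243 are covered by no other exon ID. Without strand, any RNA of Gm44335 outside its annotated exons cannot be told apart there. Chek1, the checkpoint kinase downstream of Atr, was at 226, 199, 285 and 249 CPM in control and 209, 207, 186 and 191 CPM in cKO. Only control library 2 fell within the cKO range, and the log2 fold change was -0.27 (adjusted p = 0.0973). Without control library 2 it was -0.37 (adjusted p = 0.0273). Topbp1, an activator of Atr, was at 62.3, 72.0, 42.6 and 56.4 CPM in control and 47.3, 60.3, 51.2 and 42.9 CPM in cKO. The cKO values lay within the control range (log2 fold change -0.21, adjusted p = 0.338).

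In end joining, 6 of 7 members were tested, 2 were lower and none higher. The lower share was 33.3%, where 27.9% of all genes tested were lower and 27% higher. Lig4, the ligase that seals the joined ends (chromosome 8, 9969049 to 9977686), was at 58.1, 78.6, 45.2 and 76.7 CPM in control and 31.0, 32.7, 24.1 and 31.0 CPM in cKO. The groups did not overlap, and Lig4 fell to 46.0% of control (log2 fold change -1.12, SE 0.19, adjusted p = 0.00017). With last exons left out the Lig4 change was -0.15 (adjusted p = 0.741). Xrcc5, the Ku80 subunit that caps broken ends (chromosome 1, 72307421 to 72394952), was at 60.5, 43.9, 58.3 and 62.8 CPM in control and 33.2, 30.1, 25.6 and 24.5 CPM in cKO. Again no cKO library reached a control value, and the log2 fold change was -0.99 (SE 0.17, adjusted p = 0.000176).

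The binding partners of these proteins were not called. Xrcc6, the Ku70 subunit, was at 9.64 ± 0.765 CPM in control and 9.03 ± 1.65 CPM in cKO (log2 fold change -0.09, adjusted p = 0.724), a change that turned to 0.06 without scaling factors. Xrcc4, the cofactor of Lig4, was at 103, 84.6, 84.9 and 125 CPM in control and 113, 129, 129 and 116 CPM in cKO. Control library 4 lay within the cKO range and the other 3 controls below it (log2 fold change 0.29, adjusted p = 0.116). Without control library 4 the Xrcc4 change was 0.40 (adjusted p = 0.0276). Prkdc, the kinase that Ku recruits, was at 7.18 ± 1.04 and 5.09 ± 1.93 CPM (log2 fold change -0.49, adjusted p = 0.161), and Dclre1c, the Artemis nuclease, at 6.40 ± 1.91 and 7.01 ± 1.23 CPM (0.13, adjusted p = 0.705). Of the Dclre1c counts 40.9% lie on an exon that overlaps Suv39h2. Whether the change of Xrcc5 differs from that of Xrcc6, or Lig4 from Xrcc4, was not tested.

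Homologous recombination and the RecQ helicases held all 3 higher members. Of 12 members 8 were tested, 3 higher (37.5%) and 2 lower (25%), against 27% and 27.9% of all genes tested. These are few genes, and no difference between roles was tested. Bard1, the obligate partner of Brca1 in a ubiquitin ligase (chromosome 1, 71027498 to 71103146), was at 33.0, 30.2, 28.2 and 32.8 CPM in control and 72.3, 78.4, 103 and 64.8 CPM in cKO. The lowest cKO library was well above the highest control, and Bard1 rose 2.57-fold (log2 fold change 1.36, SE 0.17, adjusted p = 9.22e-06). Wrn, a RecQ helicase with exonuclease activity (chromosome 8, 33234384 to 33385527), was at 34.5, 41.1, 34.0 and 45.4 CPM in control and 73.0, 71.9, 65.7 and 71.8 CPM in cKO. It rose 1.82-fold without overlap (log2 fold change 0.87, SE 0.15, adjusted p = 0.000182). With last exons left out the Wrn change was 0.62 (adjusted p = 0.167). Exo1, the exonuclease that resects ends and serves mismatch repair (chromosome 1, 175880581 to 175913489), was at 55.7, 55.6, 73.4 and 48.7 CPM in control and 83.1, 69.1, 73.6 and 79.99 CPM in cKO. Control library 3 lay above cKO library 2, and the call was near the threshold (log2 fold change 0.39, SE 0.16, adjusted p = 0.0441). Leaving out control library 1, 2 or 4 or cKO library 1, 3 or 4 each ended the Exo1 call, with adjusted p from 0.0828 to 0.127. In all, this call was lost in 9 of 18 alternatives. The others were no filter on low counts, protein-coding genes only and the replicate number as a block. The Exo1 change was 0.65 and called with last exons left out. The summed cumulus and granulosa markers given above, of which 4 were higher and 3 lower, are higher in the same libraries as Bard1, Wrn and Exo1, and their part in these 3 changes was not tested.

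Brca1, the ubiquitin ligase that steers breaks toward resection (chromosome 11, 101488764 to 101551955), was at 114, 109, 92.3 and 116 CPM in control and 63.5, 88.1, 91.9 and 78.1 CPM in cKO. Control library 3 and cKO library 3 were nearly equal, and the change was small (log2 fold change -0.42, SE 0.15, adjusted p = 0.0267). Without control library 1, cKO library 1 or cKO library 4 the Brca1 call was lost, with adjusted p of 0.0646, 0.104 and 0.0724. It was also lost with last exons left out (-0.32, adjusted p = 0.442) and with no filter on low counts (-0.41, adjusted p = 0.0533). Brca2, a tumour suppressor required for homologous recombination (chromosome 5, 150522630 to 150570329), was at 112, 122, 121 and 151 CPM in control and 71.2, 116, 109.6 and 78.1 CPM in cKO. The groups overlapped, since cKO libraries 1 and 4 were low and cKO library 2 exceeded control library 1 (log2 fold change -0.43, SE 0.17, adjusted p = 0.0446). Without control library 4, cKO library 1 or cKO library 4 the Brca2 call was lost, with adjusted p of 0.110, 0.155 and 0.148. It was also lost in the DESeq2 Wald test (-0.42, adjusted p = 0.0714) and with last exons left out (-0.25, adjusted p = 0.288). Bard1 and Brca1, whose proteins work as a pair, were thus called in opposite directions, the Brca1 call being lost in 6 of 18 alternatives, as was that of Brca2.

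The remaining recombination genes were not called. Xrcc2, which acts in homologous recombination, was at 79.7, 90.0, 119 and 87.4 CPM in control and 115, 97.4, 101 and 118 CPM in cKO. Control library 3 was the highest of the 8 and the other controls were the lowest (log2 fold change 0.20, adjusted p = 0.286). Without control library 3 the Xrcc2 change was 0.33 (adjusted p = 0.0495). Rad51c, which acts in the same pathway, was at 3.08 ± 1.22 and 4.35 ± 0.853 CPM, and Rad54l, a motor of strand exchange, at 4.43 ± 0.995 and 3.18 ± 0.668 CPM. Of the Rad54l counts 89.6% lie on the last exon of the noncoding Rad54l-204, which overlaps Lrrc41. Of the 3108 bases of this exon 1596 are covered by no other exon ID. Without strand, any RNA of Lrrc41 outside its annotated exons cannot be told apart there.

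**Figure D2:**
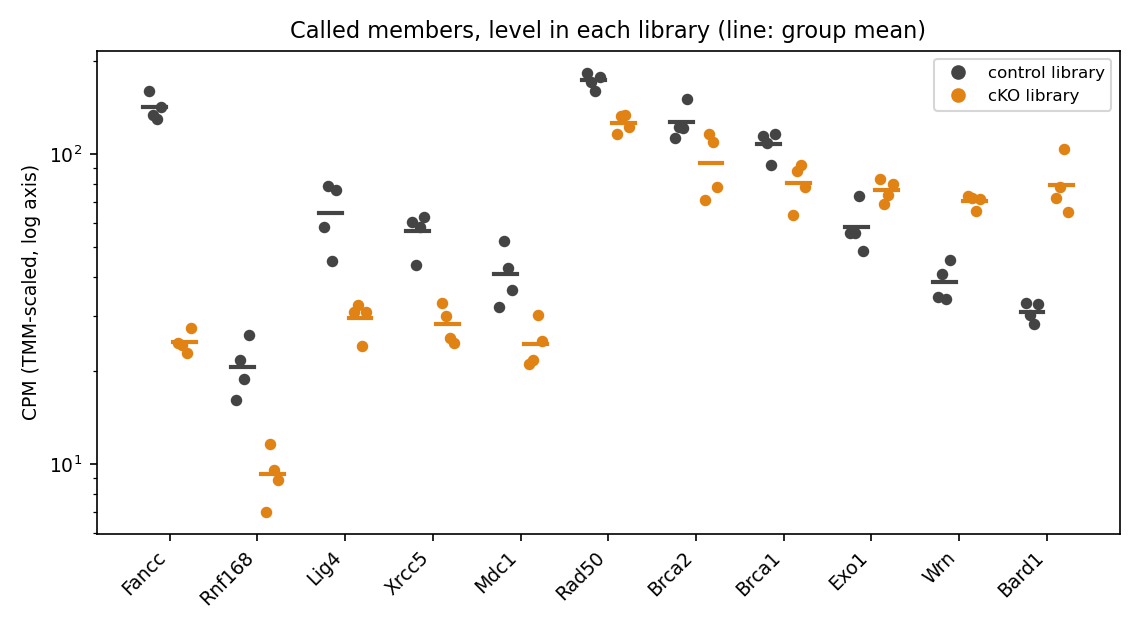
Level of the 11 called genes in each of the 8 libraries (vertical log axis, TMM-scaled CPM), with controls in dark grey, cKO in orange and lines at group means. Fancc fell from 130 to 160 CPM to 22.8 to 27.5 CPM, while the Brca2 and Exo1 points of the groups overlap.

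Among the 5 Fanconi anaemia members, 2 were tested and Fancc was lower. Fancc, a subunit of the core complex that monoubiquitinates Fancd2 (ENSMUSG00000021461.17, chromosome 13, 63285043 to 63497278, minus strand), was at 160.2, 133, 129.9 and 142 CPM in control and 24.6, 24.2, 22.8 and 27.5 CPM in cKO. The groups were far apart, and Fancc fell to 17.6% of control (log2 fold change -2.51, SE 0.15, adjusted p = 8.55e-09), the largest change of the 30 tested members. Fancd2, the target of the core complex, was at 18.6 ± 0.945 CPM in control and 17.6 ± 3.16 CPM in cKO (log2 fold change -0.07, adjusted p = 0.755). Its change was 0.08 without scaling factors, so it has no stable direction. Of the Fancd2 counts 51.5% lie on the last exon of Fancd2-202, annotated as retaining an intron, and 39.1% on an exon that overlaps Fancd2os.

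The exons of Fancc did not change alike. Its annotation has several starts, and the first exon of Fancc-203 (63497101 to 63497278), 65.5 kb upstream of the start of Fancc-201, held 89.1% of the gene's counts in control and 52.5% in cKO. This exon was at 146, 123, 107 and 127 CPM in control and 14.5, 12.4, 8.96 and 16.0 CPM in cKO (log2 fold change -3.24, SE 0.19, adjusted p = 9.76e-09). The first exon of Fancc-209 (63409538 to 63409768) fell less, from 13.04 ± 4.34 to 6.64 ± 0.656 CPM (log2 fold change -0.93, adjusted p = 0.00579). The last exon of the noncoding Fancc-204 (63321299 to 63321662) was at 0.660, 0.713, 0.784 and 0.993 CPM in control and 3.74, 4.85, 4.48 and 2.97 CPM in cKO. It rose without overlap (log2 fold change 2.34, SE 0.35, adjusted p = 5.15e-05), from 13 to 77 counts over 4 libraries each. It lies within 2010111I01Rik on the other strand, and without strand the 2 genes cannot be told apart. The gene-level fall of Fancc is thus carried by an alternative first exon, and the first exons of the main starts, which overlap each other, were barely countable. The coding part of the Fancc-203 first exon is shown because that exon carries the change; it was read from the GENCODE M21 transcript (chr13:63497101-63497119, minus strand, mm10), with the start codon in capitals.
Fancc-203 first exon, coding part: ATGccaacagacagctttt

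Excision and mismatch repair members were not called. Parp1, which binds nicks and builds poly(ADP-ribose), was at 18.3, 20.0, 13.6 and 16.9 CPM in control and 20.9, 21.9, 27.5 and 20.8 CPM in cKO. Its groups did not overlap, yet its log2 fold change of 0.40 (SE 0.19) missed the threshold (adjusted p = 0.0808). Msh6, a mismatch-recognition subunit, was at 205, 144, 329 and 159 CPM in control and 295, 274, 295 and 276 CPM in cKO. Control library 3 was the highest of all and the other 3 controls lay below every cKO library (log2 fold change 0.45, adjusted p = 0.0777). Without control library 3 the Msh6 change was 0.76 (adjusted p = 0.000323), and with Xrcc2 it brought the count of higher members to 5. Mlh3, a meiotic MutL endonuclease, was at 9.56 ± 2.88 and 11.8 ± 2.39 CPM (log2 fold change 0.30, adjusted p = 0.334). Xpc, the damage sensor of nucleotide excision repair, was at 34.8, 42.5, 36.6 and 35.5 CPM in control and 39.1, 40.3, 39.0 and 37.9 CPM in cKO. The cKO values lay within the control range (log2 fold change 0.07, adjusted p = 0.727), and the sign turned to -0.02 when only protein-coding genes were scaled.

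**Figure D3:**
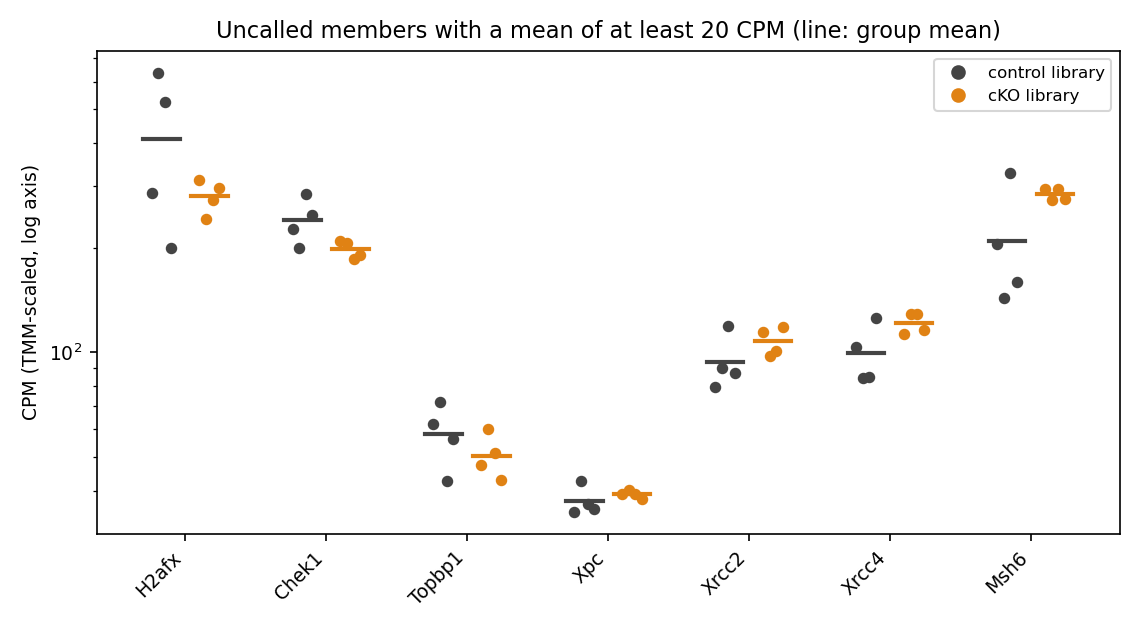
Level of the 7 uncalled genes whose mean reached 20 CPM, in each library (vertical log axis, TMM-scaled CPM), with controls in dark grey, cKO in orange and lines at group means. H2afx and Msh6 control points span from 199.9 to 637 CPM and from 144 to 329 CPM, wider than their cKO points.

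Within other members as well, exons were compared. Of 51 tested exons in 27 members 9 were higher and 12 lower, 41.2%, against 53.5% of all tested exons (26.2% higher and 27.3% lower). Exon usage, the change of an exon relative to the rest of its gene, differed in 3 of 15 testable members (20%), Fancc (adjusted p = 1.22e-11), Exo1 (0.000335) and Chek1 (0.0197), against 23.4% of the genes tested for it. In Exo1 the internal exons 10, 11 and 12 rose by log2 fold changes of 0.88, 0.97 and 0.53 (adjusted p = 0.0233, 0.0111 and 0.0239), and exon 12 holds 74.8% of the counts. Its first exon was at 2.86, 4.51, 3.92 and 5.71 CPM in control and 1.32, 1.48, 2.35 and 1.30 CPM in cKO. That exon fell without overlap (log2 fold change -1.36, adjusted p = 0.00289), and the last exon, of 5060 bases, fell as well (-1.43, adjusted p = 0.0106), with overlap. The gene-level rise of Exo1 therefore covers exons that moved both ways.

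Chek1 differed through the first exon of the noncoding Chek1-204, which was at 3.52, 2.38, 2.61 and 4.22 CPM in control and 1.10, 1.48, 0.640 and 0.928 CPM in cKO (log2 fold change -1.57, adjusted p = 0.00182). It holds 1.34% of the gene's counts in control and 0.522% in cKO, and the other 2 tested exons of Chek1 were not called. Xrcc4 exon 4, of 167 bases, was at 7.48, 7.36, 7.84 and 9.93 CPM in control and 11.4, 13.9, 19.4 and 20.0 CPM in cKO. It rose without overlap (log2 fold change 1.02, adjusted p = 0.00177), while the last exon, with 86.6% of the counts, had a log2 fold change of 0.23 (adjusted p = 0.234) and the usage test of Xrcc4 gave an adjusted p of 0.066. With last exons left out Xrcc4 was called higher (log2 fold change 1.08, adjusted p = 0.000888). Bard1 moved as a whole, since its first exon, exon 4 and last exon rose by 1.09, 1.26 and 1.499 on the log2 scale (adjusted p = 0.00407, 0.000339 and 1.11e-05). In Xrcc5, exon 13, of 134 bases and so shorter than a read of 150 bases, held 44.7% of counts. It fell by 1.25 on the log2 scale (adjusted p = 0.000255), the last exon by 0.75 (adjusted p = 0.00861), and exon 14 was at -0.55 (adjusted p = 0.0572). Lig4 fell in its last exon (log2 fold change -1.17, adjusted p = 0.000306), and its first exon had a change of -0.32 (adjusted p = 0.444). The Brca2 call rests on exon 11, with 98.1% of its counts, which by itself was at -0.41 (adjusted p = 0.0585).

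**Figure D4:**
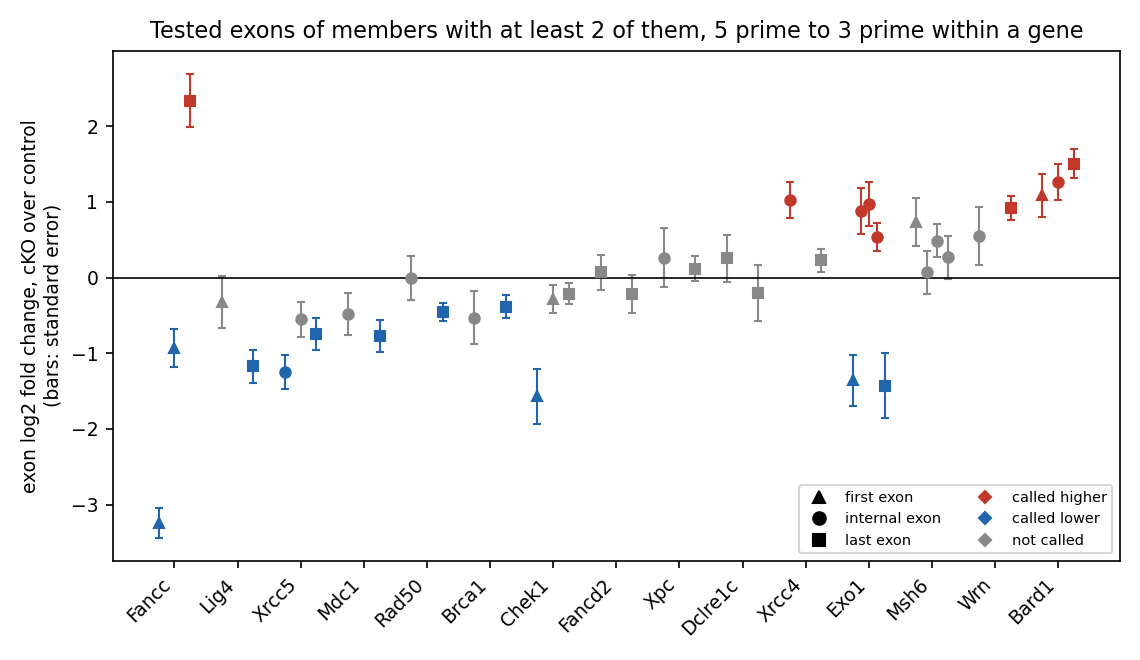
Log2 fold change of each tested exon of the 15 genes with at least 2 of them (vertical axis, bars are standard errors), from 5 prime to 3 prime within a gene, as triangles for first, circles for internal and squares for last exons, coloured by call. Fancc spans from -3.24 to 2.34 and Exo1 exons lie on both sides of 0, while the 3 Bard1 exons all lie above 0.

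Countable bases differed between members. A read that meets more than 1 exon ID is set apart, so a gene is counted only on bases that exactly 1 exon ID covers. The median share of such bases was 71.7% over the 30 tested members and 40.6% over the 17 untested ones. Untested members held 0 to 72 counts over all 8 libraries, tested ones 79 to 12237. The untested genes were Atr (69 counts), Rnf8 (59), Chek2 (3), Polq (16), Palb2 (17), Rad52 (9), Xrcc3 (1), Blm (5), Fanca (18), Fanci (28), Fancm (1), Xrcc1 (51), Lig1 (1), Lig3 (0), Ercc1 (4), Ercc4 (72) and Xpa (24). Rad52, a mediator of strand annealing, held 0 counts in every control library and 2 or 3 in each cKO library, at or under the 3 counts that a value of 0 allows. A low count of a gene with few countable bases is no measure of low expression. In tested members a median of 84.8% of counts lay on last exons, and 16 had over 80% there. A read spliced from 1 exon to another meets more than 1 exon ID and is set apart too. Reads were of 150 bases, against 134 in Xrcc5 exon 13, 167 in Xrcc4 exon 4 and 178 in the Fancc-203 first exon. The part of unspliced RNA in the counts of such short exons was not tested.

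**Figure D5:**
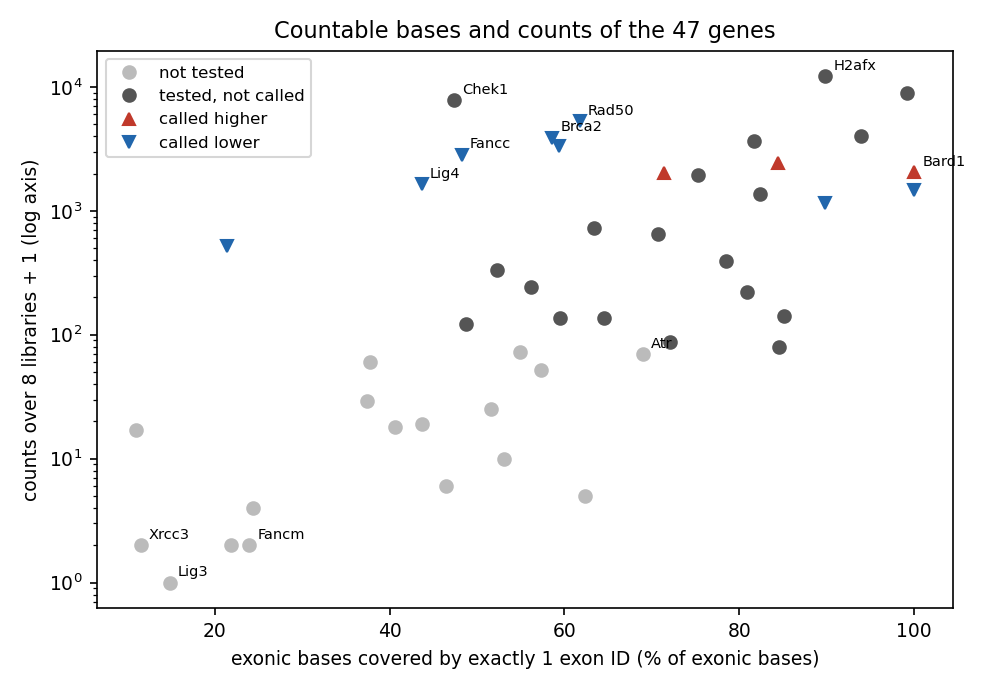
Share of exonic bases covered by exactly 1 exon ID (horizontal axis, %) and counts over 8 libraries plus 1 (vertical log axis) for the 47 genes, with untested genes in light grey, tested uncalled genes in dark grey, and called genes as red or blue triangles. The untested genes sit at or below 72 counts and mostly at low countable shares.

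The letters GGACT, a common form of the m6A consensus, were searched on the sense strand of last exons. For each gene this was the longest last exon among its protein-coding transcripts, which need not be the exon that was counted. They occurred at least once in 19 of 30 tested members (63.3%) and in 73.1% of 7990 tested protein-coding genes. Their density was 0.853 per kb of last exon over the tested members and 0.931 per kb over those genes. Members called higher had 1.14 per kb (3 genes), those called lower 1.01 per kb (8 genes) and uncalled ones 0.673 per kb (19 genes). Most sites of the higher members, 10, are those of Exo1. The Exo1 last exon searched holds 3.88% of the gene's counts and was itself called lower (log2 fold change -1.43, adjusted p = 0.0106). Over all genes the densities were 0.929, 0.923 and 0.937 per kb for higher, lower and uncalled genes. Exo1 had 10 such sites, Lig4 5, Rnf168 4, Brca1 3, Wrn 2, Brca2 2 and Fancc 1, while Bard1, Mdc1, Rad50 and Xrcc5 had none. Sites of Brca2 and Fancc are not printed below. For Brca2 the exon searched was that of Brca2-208, with a site inside exon 11, and for Fancc that of Fancc-214. A match is a description of letters, and methylation was not measured here. For 5 called members with a match, the site nearest the stop codon and its flanks are shown in mm10 from the GENCODE M21 transcripts, to let members of both directions be compared, with GGACT in capitals: Brca1 (chr11:101489859-101489887, minus strand, coding), Lig4 (chr8:9971303-9971331, minus strand, coding), Rnf168 (chr16:32299760-32299788, plus strand, 3′ UTR), Wrn (chr8:33235866-33235894, minus strand, 3′ UTR) and Exo1 (chr1:175908780-175908808, plus strand, 3′ UTR).
Brca1: tcttgtgatgtgGGACTgggtgttggaca
Lig4: caccatttatttGGACTtgtatgctgtta
Rnf168: taggtaagtatcGGACTggagagatggct
Wrn: gaaagcggacaaGGACTccagttacagaa
Exo1: tagcaatctaaaGGACTctaccatgtatg

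A wider list of other repair genes was read in the same fit. Of 136 with exon IDs 69 were tested, 14 higher and 14 lower (40.6%), against 54.9% of all genes tested (27% higher and 27.9% lower). Their median log2 fold change was 0.00. The counts by role below rest on few genes, and no difference between roles or lists was tested. Nhej1, the XLF protein that works beside Xrcc4 and Lig4, fell from 343 ± 39.6 to 78.1 ± 16.9 CPM, a log2 fold change of -2.13 (adjusted p = 1.07e-07), and Aplf, an end-joining scaffold, from 6.43 ± 2.46 to 3.84 ± 0.726 CPM (-0.74). The Aplf call was just under the threshold (adjusted p = 0.0498), and its groups overlapped. Poll, a gap-filling polymerase, rose from 30.6 ± 8.04 to 53.3 ± 5.90 CPM (0.80). End joining held 2 lower and 1 higher of 4 tested genes in this list.

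Fancl, the ubiquitin ligase of the Fanconi core complex, fell from 9.10 ± 1.94 to 1.65 ± 0.531 CPM, a log2 fold change of -2.45 (adjusted p = 7.81e-06), the only called one of 4 tested in its role. It held 152 counts over the control libraries and 32 over the cKO libraries, and 91.8% of its counts lie on a single first exon. In sensing and signalling, 7 of 16 tested genes of the list were higher (43.8%) and 2 lower (12.5%), against 27% and 27.9% of all genes tested. Ppm1d, a phosphatase that switches the response off, rose from 49.6 ± 10.2 to 92.6 ± 20.3 CPM (0.90), Tti2, a stabiliser of the large checkpoint kinases, fell from 4.80 ± 0.511 to 1.49 ± 0.290 CPM (-1.67), and Shld2, a shieldin subunit that limits resection, from 179 ± 37.7 to 112 ± 9.76 CPM (-0.67). Tti2 held 80 counts over the control and 29 over the cKO libraries, and 84.4% of its counts lie on a single internal exon. In recombination 1 of 15 tested was higher (6.67%) and 4 were lower (26.7%). Mcm9, a helicase, rose from 26.4 ± 4.93 to 47.5 ± 7.28 CPM (0.85), with 87.5% of its counts on an exon that overlaps another gene. Rbbp8, which starts resection, fell from 72.5 ± 20.0 to 47.9 ± 2.49 CPM (-0.60), and Swsap1, a Shu complex protein, from 13.7 ± 6.38 to 6.95 ± 2.29 CPM (-0.97).

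In base excision repair 2 of 11 were higher (18.2%) and 3 lower (27.3%). Neil2, a glycosylase for oxidised bases, fell from 71.2 ± 13.9 to 13.9 ± 3.13 CPM (-2.36, SE 0.20, adjusted p = 2.58e-07), Mbd4, a glycosylase for deaminated CpG, fell from 7.97 ± 1.82 to 3.62 ± 0.885 CPM (-1.13), and Ung, the uracil glycosylase, rose from 2.48 ± 0.915 to 5.81 ± 1.29 CPM (1.22). Of the Neil2 counts 95.4% lie on a single internal exon, and of the Ung counts 95.4% on a single first exon. Msh4, a meiotic MutS protein, fell from 9.57 ± 1.93 to 6.30 ± 1.13 CPM (-0.60), and Ercc6, which couples repair to transcription, from 34.2 ± 3.35 to 20.6 ± 3.44 CPM (-0.73). Each was the only called gene of its role. Among damage bypass and direct reversal genes 3 of 8 were higher and none lower (27% of all genes tested were higher): Mgmt, which removes alkyl groups from guanine, from 36.9 ± 5.61 to 69.6 ± 7.16 CPM (0.91), and the bypass polymerases Polh from 2.57 ± 0.343 to 6.11 ± 1.73 CPM (1.24) and Polk from 28.7 ± 5.36 to 46.0 ± 6.07 CPM (0.68). Over members and this list together, 99 of 183 genes were tested, 17 higher (17.2%) and 22 lower (22.2%). Together 39.4% were called, against 54.9% of all genes tested (27% higher and 27.9% lower).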

How the data were processed

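RNA-seq of mouse GV oocytes was read from 8 deposited tables of counts per exon ID, whole numbers that the authors made with STAR and HTSeq on mm10, per the submitters' processing notes. Their versions and options, and the annotation used, are not stated in the labels. Of 496288 exon IDs 494230 (99.6%) matched GENCODE M21 on the same build, with versions ignored. Unmatched IDs held 0.252% of counts and were left out, as were 5 summary rows per file. Counts on exon IDs were 14.6% to 15.6% of reads assigned to 1 exon ID, to more than 1 or to none. Reads in the other summary rows are outside this share. Reads were pairs of amplified cDNA from oligo-dT priming without strand. Exon counts were summed per gene, filtered with filterByExpr (minimum count 10), scaled by TMM (factors 0.895 to 0.994 in control, 1.03 to 1.07 in cKO) and tested with edgeR 4.0.16 in R 4.3.3, two-sided, with group as the only term. The SE is the size of the log2 fold change over the root of F. CPM are over matched counts and TMM factors. Exon usage was tested with diffSpliceDGE. The scripts were tested on simulated data. DESeq2 1.42.0 and other settings are given in the closing section.

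The members and lists were chosen with earlier results of these data known. Values per library are given for each called member and each tested member whose mean reached 20 CPM, and also for Parp1, chosen after its values were seen. Of other repair genes, up to 3 called genes of smallest p per role are named. Correlations of log2(CPM + 1) were 0.967 to 0.987 within groups and 0.846 to 0.889 between them, across genes, which are not replicates.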

Additional observations from a re-analysis of the deposited data

Results flagged for a closer look

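In groups of 4 libraries, 1 value can stand far from the other 3. This was checked in both groups for the 30 tested members and Virma, 62 groups in all, and chance flags about 1 in 20. In cKO, Wrn was at 65.7 CPM in library 3 and at 71.8 to 73.0 CPM in the others, all above the controls. In cKO, Parp1 was at 27.5 CPM in the same library and at 20.8 to 21.9 CPM in the others.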

How the results depend on the processing

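Gene-level results were recomputed under 18 alternatives, 8 of which leave out 1 library, and exon-level results under 10. Of the 11 called members 4 (Fancc, Bard1, Xrcc5 and Rnf168) kept their call wherever they could be tested, and 6 uncalled members (Chek1, H2afx, Msh6, Parp1, Xrcc2 and Xrcc4) were called under some alternative. Rnf168 could not be tested with last exons left out, whereas Fancc, Bard1 and Xrcc5 could. Without scaling factors, an alternative chosen after seeing the data, 7 members were higher and 5 lower, Xrcc6 changed by 0.0626 and Fancd2 by 0.0808. With last exons left out, 17 members were tested and 2 were lower, other repair genes gave 7 higher and 6 lower, all genes 973 and 995, and Rad50 was at 0.22; fewer genes (4189) were tested. A minimum count of 30 gave 9 higher other repair genes and 1 member with changed usage; scaling protein-coding genes only gave 9 and an Xpc change of -0.0198. The DESeq2 Wald test gave 3 members higher and 7 lower, without Brca2. Without exons that overlap another gene Fancd2 was at 0.0367. Where a cause is not given it was not tested. Leaving out 1 library gave 2 to 5 members higher and 6 to 9 lower, 9 to 13 other repair genes higher and 9 to 13 lower, 2602 to 3068 genes higher and 2764 to 3018 lower, 8 to 12 member exons higher and 11 to 12 lower, and 2 to 4 members with changed usage. It turned the sign of Dclre1c (range -0.0417 to 0.312, negative without control 2 or cKO 3), Nbn (-0.422 to 0.0909, positive without cKO 1), Atm (-0.0830 to 0.337, negative without cKO 2), Fancd2 (-0.159 to 0.0126, positive without cKO 3) and Xrcc6 (-0.190 to 0.00398, positive without cKO 4).

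Replicate numbers are shared by the groups, but the labels do not say that they pair libraries, and deviations of same-numbered libraries correlated at -0.0558 to 0.111, with 2 of 4 over 0.1. With the replicate number as a block, 3 members were higher and 8 lower, Exo1 was not called (adjusted p = 0.0520) and Msh6 was (0.53, adjusted p = 0.0164). Every p-value rests on 4 libraries a group.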
